A study of Mus musculus with 5 samples.

Results

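The stefin A genes of the mouse encode small inhibitors of cysteine proteases. The 5 genes described here are *Stfa1*, *Stfa2*, *Stfa2l1*, *Stfa3* and *Gm5483*, of 28692 genes in the count matrices, and they were listed by name and chosen by their measured levels across cell types and days, the high level in neutrophils being already known. That neutrophils hold most of their transcripts is therefore a description of how they were chosen and carries no test. Bone marrow was taken from 8-week-old, non-irradiated C57BL/6J mice, each given 1000 BCR-ABL1 pre-B acute lymphoblastic leukemia cells through the tail vein. Cells of the marrow plug were combined with those of digested crushed bone, red cells were lysed, the cells were cryopreserved, and 3′ droplet libraries were sequenced. Mice were euthanised immediately after the injection (day 0) or at day 3, 6, 9 or 12, so the day 0 mouse had also received leukemia cells. Each day is 1 mouse and 1 library, so mouse, library and day cannot be told apart, no p-value is given, and every interval is a 95% interval that covers counting error only.

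Stefins belong to the cystatin superfamily. Unlike the secreted cystatins they lack a signal peptide and act inside the cell, where they bind the active site of papain-like proteases such as cathepsins B, H, L and S. Humans have a single stefin A gene, whereas the mouse carries a cluster of related copies. Neutrophils are short-lived phagocytes that mature in the marrow through dividing, granule-forming and post-mitotic stages and store their own proteases in granules.

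The 5 genes lie within 299 kb of chromosome 16 (GRCm38, GENCODE M21 annotation), at chr16:36156811-36455392, among 29 annotated genes. On the forward strand are *Stfa2l1* (ENSMUSG00000059657, chr16:36156811-36161953), *Gm5483* (ENSMUSG00000079597, chr16:36184212-36188111, named *Cstdc4* in RefSeq) and *Stfa1* (ENSMUSG00000071562, chr16:36276951-36285373). On the reverse strand are *Stfa2* (ENSMUSG00000022902, chr16:36403992-36408457) and *Stfa3* (ENSMUSG00000054905, chr16:36450537-36455392). Each has 3 exons, and the coding sequence with its stop codon is 387 bases in *Stfa1*, 294 in *Gm5483* and 312 in the other members. The droplet method reads the 3′ end, so the last 60 coding bases, all exonic and ending in the stop codon, are shown to let the copies be compared where they are counted. Capitals mark a base that is not the commonest of the 5 at its position.
Stfa1: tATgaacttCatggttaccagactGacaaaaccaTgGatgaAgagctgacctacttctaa
Stfa2: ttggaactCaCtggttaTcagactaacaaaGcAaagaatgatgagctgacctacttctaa
Stfa2l1: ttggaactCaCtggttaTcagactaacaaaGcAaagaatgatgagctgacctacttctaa
Stfa3: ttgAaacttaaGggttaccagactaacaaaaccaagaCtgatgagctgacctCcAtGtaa
Gm5483: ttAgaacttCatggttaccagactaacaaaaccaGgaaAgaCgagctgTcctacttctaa

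*Stfa2* and *Stfa2l1* shared these 60 bases exactly, and their coding sequences were 96.6% identical over 294 aligned bases. The other pairs among *Stfa2*, *Stfa2l1*, *Stfa3* and *Gm5483* were 81.3 to 83.0% identical, and *Stfa1* was 77.1 to 83.6% identical to each of them over 201 aligned bases. How far a read can be placed was measured over the 300 windows of 98 bases nearest to the end of each transcript. Each was compared with the transcripts of the other listed stefin genes of the locus, which leave out copies such as the pseudogene *Gm7260*. Exact matches were sought in all annotated transcripts. All windows of *Stfa3* differed from every listed transcript by 3 or more bases, against 60% of those of *Stfa2*, 60% of those of *Stfa2l1*, 59.3% of those of *Stfa1* and 44.3% of those of *Gm5483*. *Stfa1* shared 10 windows exactly with a transcript of another gene, and *Gm5483* shared 37. Over all windows, the gene most often closest was *BC100530* for *Stfa1* and *2010005H15Rik* for *Gm5483*. Among the transcripts compared, counts of all members but *Stfa3* can therefore include, or lack, reads of a near copy. Some windows of *Stfa2* and *Stfa2l1* differed by 1 base alone.

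The starts of the genes are alike too. RefSeq promoters of the 5 members (GRCm38.p6, 250 bases before the gene start) were 72.8% (*Stfa2* and *Gm5483*) to 92.3% (*Stfa2* and *Stfa2l1*) identical. The 50 bases before the start are shown for 3 members, with capitals on a run of 13 bases that all 5 members share.
Stfa2l1 (chr16:36156761-36156810, forward strand): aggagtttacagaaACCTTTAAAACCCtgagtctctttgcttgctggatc
Gm5483 (chr16:36184162-36184211, forward strand): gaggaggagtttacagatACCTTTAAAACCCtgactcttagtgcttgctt
Stfa3 (chr16:36455393-36455442, reverse strand): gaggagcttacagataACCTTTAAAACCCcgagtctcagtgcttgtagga

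The run, found by comparing the members and searched on both strands, starts 32 to 36 bases before the RefSeq gene start and occurs in 8 of 32851 promoters (0.0244%). The 3 that are not members are *Csta3*, *Cstdc3* and *Gm7260*. For *Stfa1* and *Stfa2* the GENCODE gene given above begins further upstream, so there the run lies inside the annotated gene, and these 2 are not shown. Of the motifs listed for the search, GAGGAA occurred in all 5 promoters and in 23.3% of all promoters. CCAAT occurred in every member but *Gm5483*, between 239 and 244 bases before the start, and in 33.8% of all promoters. TTGCNNAA was found only in *Stfa1* (9.56% of all promoters), and TATAAA (12.4%) and ATAAATA (5.17%) in none of the members.

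The libraries held 33425695 to 43554233 UMIs, where a UMI (unique molecular identifier) counts 1 captured transcript. Barcodes with at least 500 UMIs were taken as cells, 5474 to 7604 per library and 32135 in all, with a median of 2874 to 3786 UMIs per cell. Any pair of libraries shared 44 to 73 cell barcodes, against 43.6 to 68.9 for barcodes drawn at random. Cells were clustered without the 5 genes, and clusters were named from marker lists, "-like" marking a name that rests on those markers alone. Neutrophil-like cells made up 45.8, 54.1, 49.1, 51.5 and 71.6% of the cells from the first to the last day. Doublets were kept, since the caller used marked 0 to 4 cells per library, and their scores are given where they bear on a value.

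The stefin A genes were neutrophil genes in every library. The 32135 cells held 64458 stefin A UMIs, and neutrophil-like cells, 53.9% of the cells and 51.3% of all UMIs, held 92.4% of them (92.2 to 92.6%), ranging from 90.2 to 95.1% between libraries. The summed level in neutrophil-like cells was 594 CPM at day 0, 895 at day 3, 658 at day 6, 749.5 at day 9 and 785 at day 12, where CPM is the count per 1000000 UMIs of the class. In every library this was above the level in every other class. All 5 members were at least 4-fold higher in neutrophil-like cells than in all other cells together in each of the 5 libraries, as were 1.67% of the 11702 genes compared, a contrast that the choice of genes already used.

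**Figure D1:**
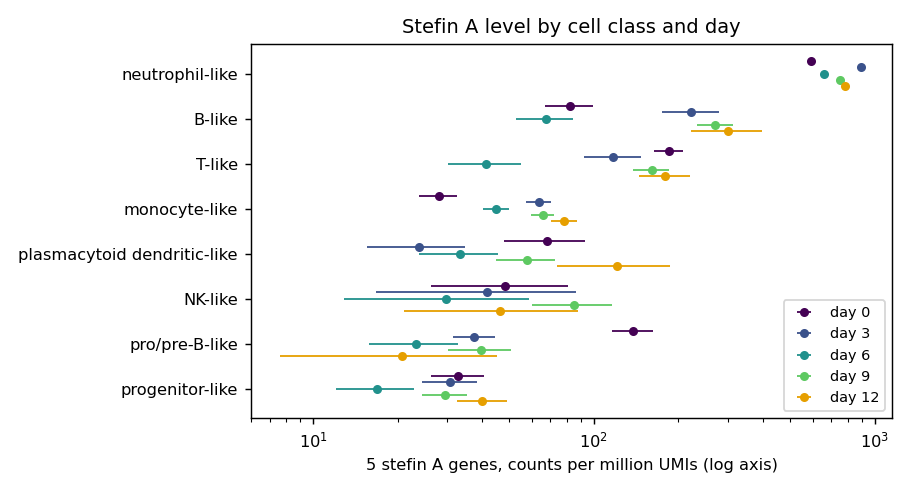
Stefin A level by cell class. Each point is 1 library, the horizontal axis is the summed level of the 5 genes in CPM on a log scale, bars are exact Poisson intervals, colours mark the day, and the neutrophil-like points at 594 to 895 CPM lie to the right of every other named class.

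Outside the neutrophils the levels were lower and uneven. Progenitor-like cells had 16.9 to 40.1 CPM, monocyte-like cells 28.0 to 78.3, NK-like cells 29.8 to 84.9 and plasmacytoid dendritic-like cells 23.8 to 121. Pro/pre-B-like cells had 20.7 to 138 CPM, T-like cells 41.2 to 185, B-like cells 67.3 to 299 and the unnamed clusters 52.4 to 143. Most of these ranges overlapped, while those of B-like and T-like cells lay above that of progenitor-like cells. Free RNA was read from barcodes with 1 to 100 UMIs, where the 5 genes stood at 186 to 360 CPM. In B-like cells the family stood at 10.2 to 38.1% of its neutrophil-like level, against 10.7 to 21.3% for *S100a8* and *S100a9*, the calprotectin genes, which are abundant in neutrophils.

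In B-like, T-like, monocyte-like and pro/pre-B-like cells and in the unnamed clusters a few cells carried most of these UMIs. In B-like cells 14 of 1830 cells had 10 or more stefin A UMIs and held 67.8% of the 484 UMIs of the class. In T-like cells 15 of 1718 held 75.6% of 680, and in monocyte-like cells 35 of 3999 held 56.3% of 1702. In pro/pre-B-like cells 6 of 842 held 60.8% of 372, and in the unnamed clusters 19 of 4128 held 54.6% of 967. The B-like, T-like and monocyte-like ones also carried neutrophil RNA and high doublet scores. *S100a8* and *S100a9* made up a median of 26.7% of the UMIs of the 14 B-like cells against 2.05% of the B-like cells without a stefin A UMI, and the median doublet score was 0.273 against 0.0177. In T-like cells the scores were 0.343 and 0.0269, in monocyte-like cells 0.246 and 0.045, and in pro/pre-B-like cells 0.119 and 0.0623. The cells with 10 or more were also deeper than those without. Their median was 3728 against 1556.5 UMIs in B-like and 4943 against 2395 in T-like cells. It was 10061 against 6495.5 in monocyte-like and 16392 against 4700.5 in pro/pre-B-like cells, and the part of depth was not tested. Cells with 10 or more held less of the UMIs in NK-like (44.2%), plasmacytoid dendritic-like (36.4%) and progenitor-like cells (32.6%). Their doublet scores were 0.211 against 0.0356 in the 2 NK-like cells and 0.258 against 0.0511 in the 4 plasmacytoid dendritic-like cells. In the 6 progenitor-like cells they were 0.089 against 0.0718. A single cell set the B-like level at day 12, where it held 40 of 49 UMIs. Without it the level was 56.2 CPM in place of 299, and *Stfa1* alone went from 244 to 25.0 CPM. At day 3 a single cell held 53 of the 74 B-like UMIs, and the level without it was 63.6 CPM in place of 222. A single pro/pre-B-like cell held 120 of the 140 UMIs of that class at day 0, where its level was 138 CPM.

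Neutrophil-like cells also stood above B-like cells in detection per cell. With every cell reduced at random to 500 UMIs, 17.2 to 21.6% of neutrophil-like cells had a stefin A UMI, against 1.51 to 4.55% of B-like cells, a class that should lack them (before the reduction, 31.4 to 41.0% and 4.40 to 10.3%, at median depths of 3162 to 3654 and 1298 to 1726 UMIs).

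The members differed in abundance by more than an order of magnitude. Of the stefin A UMIs of neutrophil-like cells, *Gm5483* gave 53.3%, *Stfa2l1* 27.1%, *Stfa1* 13.2%, *Stfa3* 4.27% and *Stfa2* 2.11%. All are counts of transcript ends, which do not scale with transcript length. *Gm5483* stood at 328, 441, 386, 402 and 409 CPM from day 0 to day 12, the highest member in each library. *Stfa2l1* followed with 167, 245, 169, 194 and 221 CPM, and *Stfa1* with 70.5, 153, 71.3, 102 and 92.1. *Stfa3* stood at 21.5, 37.0, 22.1, 36.7 and 38.4 CPM and *Stfa2*, the near copy of *Stfa2l1*, at 7.72, 19.5, 9.95, 14.7 and 24.2. This order was the same in all 5 libraries, and the lowest *Stfa2l1* value was above the highest *Stfa1* value.

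Against day 0, the stefin A level of neutrophil-like cells was 1.51-fold at day 3 (1.47 to 1.55), 1.11-fold at day 6 (1.08 to 1.14), 1.26-fold at day 9 (1.23 to 1.30) and 1.32-fold at day 12 (1.29 to 1.36). A fold of 1.5 was used to call a difference between libraries. At day 3 the members past it were 3 of 5, *Stfa2* at 2.53-fold (2.03 to 3.16), *Stfa1* at 2.16-fold (2.01 to 2.33) and *Stfa3* at 1.72-fold (1.499 to 1.98), where 6.9% of 7308 genes were as much higher. At day 6 there were 0 of 5 (background 13%). At day 9 there were 2 of 5 (background 15.4%), *Stfa2* at 1.91-fold (1.53 to 2.40) and *Stfa3* at 1.71-fold (1.49 to 1.96). At day 12 they were again *Stfa2*, at 3.13-fold (2.55 to 3.88), and *Stfa3*, at 1.78-fold (1.56 to 2.04), beside a background of 4.72%. Several of these calls depended on the processing. With every library weighted to the pooled mix of neutrophil-like clusters described below, *Stfa3* fell under the limit of 1.5-fold on all 3 days (log2 ratios of 0.43, 0.36 and 0.56 at days 3, 9 and 12) and *Stfa2* at day 9 (0.45), while *Stfa1* and *Stfa2* at day 3 and *Stfa2* at day 12 stayed past it. At day 9 *Stfa2* was also under it with a mean of per-cell values (0.56) and *Stfa3* with TMM scaling (0.56). *Stfa2* passed it at day 6 with the B-like level subtracted (0.996). None of the 5 was 1.5-fold lower on any day (background 3.49% at day 3, 2.8% at day 6, 3.45% at day 9 and 3.34% at day 12).

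The 2 least abundant members thus had the highest folds at days 9 and 12, while *Gm5483* stayed between 1.18- and 1.34-fold and *Stfa2l1* between 1.01- and 1.47-fold. On the log2 scale the median of the 5 members was 0.78, 0.04, 0.53 and 0.40 at days 3, 6, 9 and 12, and that of all genes compared was 0.14, 0.21, 0.21 and 0.02. The median of the members was thus above that of all genes at days 3, 9 and 12 and below it at day 6, where *Stfa2* (0.37) and *Gm5483* (0.24) were still above it. With TMM scaling by edgeR the log2 ratio of the summed level at day 6 turned from 0.15 to -0.0598. In these sums, fewer cells that express a gene and less of its RNA per cell cannot be told apart.

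**Figure D2:**
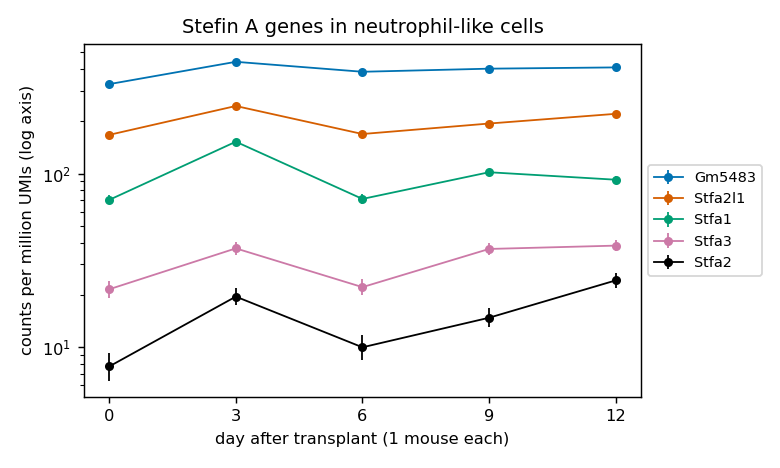
Level of each stefin A gene in neutrophil-like cells by day. The horizontal axis is the day, the vertical axis is the level in CPM on a log scale, and bars are exact Poisson intervals. The order from *Gm5483* down to *Stfa2* holds in all 5 libraries, and each point is a single mouse.

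The neutrophil-like cells fell into 5 clusters, which are named here by number. N2 (2526 cells) was led by *Hist1h2ap*, *Hist1h2ae* and *Ube2c*, genes of dividing cells. N5 (1949 cells) was led by *Orm1*, *Zmpste24* and *Tmem216*, and N1 (4898 cells) by *1700047M11Rik*, *Mmp8*, a collagenase of granules, and *AA467197*. N0 (5714 cells) was led by the chemokine gene *Ccl6*, by *Amica1* and by *Pla2g7*, and N3 (2247 cells) by *Cxcl2*, *Ccl4* and *Irg1*, genes of inflammatory activation.

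The stefin A level differed widely across these clusters. N0 had 2644, 2932, 1948, 2179 and 2761 CPM in the same order of days, and N3 had 2549, 2001, 2123, 2133 and 2348. N1 lay between, at 396, 371, 221, 306 and 553 CPM. N2 had only 58.1, 108, 86.3, 109 and 67.3 CPM, and N5 79.1, 181, 45.1, 69.6 and 53.9, levels within the range of the classes that are not neutrophils. Here too a few cells weighed heavily. Cells with 30 or more stefin A UMIs were 16 of 2526 in N2, with 28.5% of its stefin A UMIs, and 5 of 1949 in N5, with 35.8%. N0 and N2 were then compared because they had the highest and lowest pooled stefin A level, so this contrast carries no test. *Gm5483*, *Stfa2l1* and *Stfa2* were at least 10-fold higher in N0 than in N2 in all 5 libraries, as were 1.24% of 8329 genes. None of the 5 was 1.5-fold higher or lower in N3 than in N0 in every library (2.32% and 0.576% of 5900 genes). After reduction to 500 UMIs, a stefin A UMI was seen in 31.5 to 38.5% of N0 cells, 30.9 to 33.8% of N3, 7.40 to 13.6% of N1, 1.88 to 3.41% of N2 and 1.44 to 4.52% of N5.

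The mix of members shifted between clusters. *Gm5483* gave 53.9 to 60.5% of the stefin A UMIs of N0 and 24.9 to 44.0% of those of N1. *Stfa3* gave 1.63 to 3.96% in N0 and 8.11 to 14.9% in N1, so these ranges did not overlap for either gene. At day 0 the level of *Stfa3* was 43.1 CPM in N0 and 52.6 in N1, a ratio of 0.82 (0.59 to 1.12), where the ratio was 10.6 (9.61 to 11.8) for *Gm5483* and 5.97 (5.30 to 6.73) for *Stfa2l1*. The N1 mix rests on few cells. Only 212 of 4898 N1 cells had 10 or more stefin A UMIs, and *Stfa3* led 3 to 6 of these per library. The 56 N1 cells with 30 or more held 34.0% of its stefin A UMIs. The intervals leave out this spread between cells. The mix was less even between libraries in the clusters of low level. *Stfa1* gave 17.9 to 77.1% of the stefin A UMIs of N5 and 14.3 to 41.7% of those of N2, and at day 6 *Gm5483* led both, with 50.5 and 63.2%. Of the 316 *Stfa1* UMIs in N5 at day 3, 182 came from 1 cell, and the level without it was 59.3 CPM in place of 139.

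The share of each cluster in the neutrophil-like cells varied between libraries. N0 held 21.8, 40.8, 43.3, 43.5 and 17.9% of the neutrophil-like cells from day 0 to day 12, N3 held 20.6, 6.93, 7.80, 5.90 and 22.1%, and N1 held 22.3, 25.5, 25.4, 26.1 and 38.7%. N2 held 12.6 to 19.1% of the cells and 32.9 to 42.4% of the UMIs. With each library weighted to the pooled mix of clusters, the log2 ratio of the summed level to day 0 was 0.0651 at day 3, -0.41 at day 6, -0.24 at day 9 and 0.0807 at day 12, in place of 0.59, 0.15, 0.33 and 0.40.

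**Figure D3:**
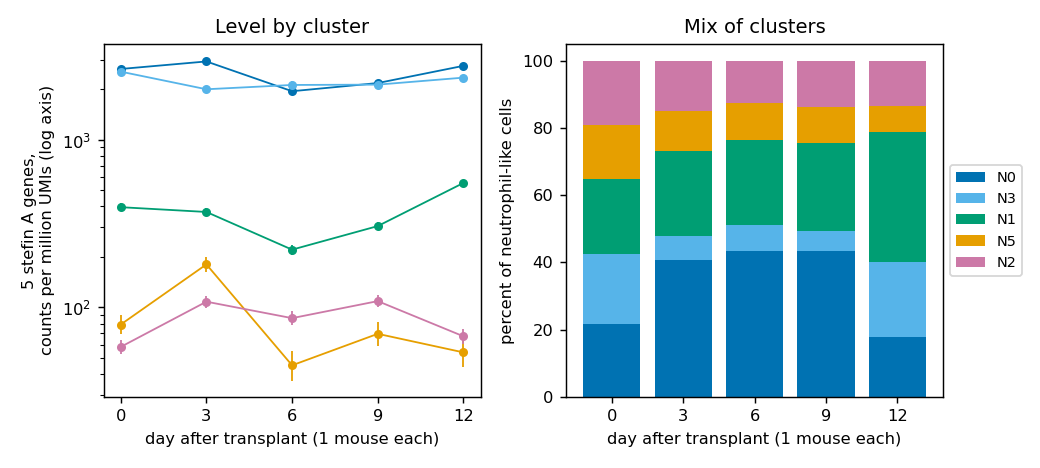
Stefin A level and cell numbers of the neutrophil-like clusters by day. The left panel gives the summed level of the 5 genes in CPM on a log axis with exact Poisson intervals, and the right panel the percent of neutrophil-like cells in each cluster. N0 and N3 lie between 1948 and 2932 CPM and N2 and N5 between 45.1 and 181, and N0 is the commonest cluster at days 3, 6 and 9 but not at days 0 and 12.

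Within N0 the members did not move together. *Stfa3* was 1.98-fold its day 0 level at day 3 (1.49 to 2.68), 1.11-fold at day 6 (0.82 to 1.53), 1.88-fold at day 9 (1.42 to 2.53) and 2.53-fold at day 12 (1.87 to 3.47). *Stfa2* was 2.60-fold (1.78 to 3.93), 1.38-fold (0.92 to 2.12), 1.72-fold (1.17 to 2.61) and 2.27-fold (1.49 to 3.53). For both, the counting interval lay above 1 on every day but day 6. This interval leaves out the spread between cells and between mice. *Gm5483* stood at 0.99-, 0.72-, 0.78- and 0.98-fold on the same days and *Stfa2l1* at 1.10-, 0.71-, 0.74- and 0.99-fold, so the abundant members were lower at days 6 and 9. *Stfa1* stood at 1.66-, 0.79-, 1.17- and 1.28-fold. The day 0 values of *Stfa2* and *Stfa3* in N0 rest on 31 and 57 UMIs. The other clusters gave other values. In N3 *Stfa3* stood at 1.53-, 0.40-, 1.82- and 1.75-fold and *Stfa2* at 1.17-, 0.39-, 0.91- and 2.10-fold. In N1 *Stfa3* stood at 1.01-, 0.62-, 0.86- and 0.85-fold and *Stfa2* at 1.42-, 0.61-, 1.12- and 2.56-fold, so *Stfa3* stayed at or under 1.01-fold in N1.

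Single cells differed widely within a cluster. In N0, 51.2% of the cells had no stefin A UMI, the mean was 6.04 and the median 0, while the highest cell had 190. The 317 N0 cells (5.55%) with 30 or more held 45.8% of the stefin A UMIs of N0. N3 was alike, with 52.8% of cells at 0 and a highest cell of 122. Over all neutrophil-like cells, 1761 of 17334 (10.2%, and 9.02 to 12.7% by library) had 10 or more and held 78.7% of the UMIs. A cell with 10 or more is called high below, a limit set after the values were seen.

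**Figure D4:**
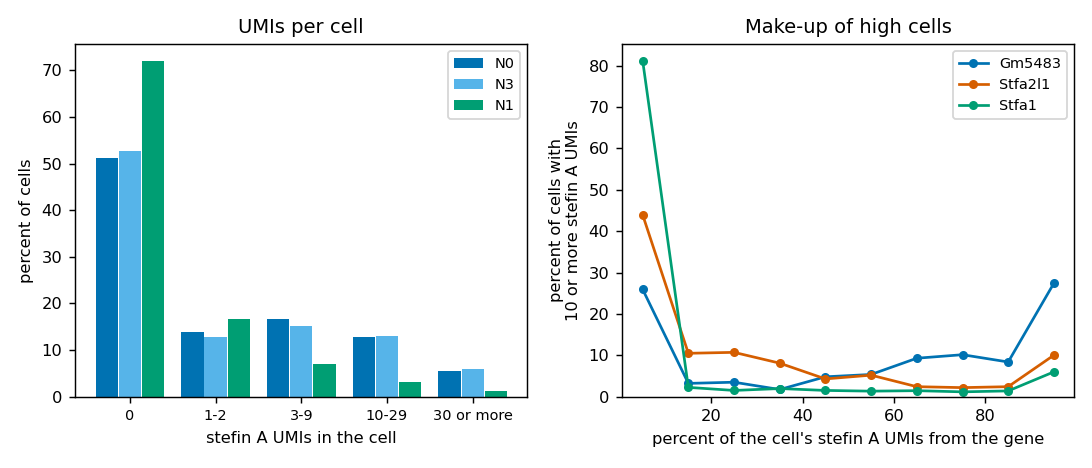
Stefin A UMIs in single neutrophil-like cells. The left panel gives the percent of N0, N3 and N1 cells by the number of stefin A UMIs in the cell, and the right panel the percent of high cells (10 or more) by the percent of their stefin A UMIs that came from *Gm5483*, *Stfa2l1* or *Stfa1*, in steps of 10. Bars are highest at 0 UMIs (51.2% of N0 cells), and the line of *Gm5483* is highest at both ends, with 26.0% and 27.4% of high cells.

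The Fano factor, the variance of a gene's UMIs over its mean after reduction to 500 UMIs, is near 1 where cells differ by counting alone. In N0 it was 5.31 to 6.69 for *Gm5483* across libraries, and 0 to 5 of the 68 to 114 genes of like mean had a higher one (median of those genes 1.09 to 1.21). It was 3.58 to 7.29 for *Stfa1*, 2.17 to 2.57 for *Stfa2l1*, 1.70 to 2.80 for *Stfa3* and 1.19 to 2.78 for *Stfa2*. For *Stfa2*, 110 of 2089 genes of like mean were higher at day 0. At days 3, 6, 9 and 12 these were 4 of 1586, 1 of 2068, 0 of 1909 and 0 of 1584. In N3 it was 4.83 to 6.01 for *Gm5483*, 1.88 to 4.99 for *Stfa1* and 2.58 to 3.73 for *Stfa2l1*. The 2 scarce members were not above the like genes in every N3 library. At day 3 *Stfa3* had 0.98, with 1078 of 1815 genes higher, and at day 9 *Stfa2* had 0.99, with 1707 of 2746 higher. For comparison the Fano factor in N0 was 1.31 to 1.39 for *Mmp8* and 0.95 to 1.21 for *Cxcr2*, the chemokine receptor of mature neutrophils. It was 1.89 to 2.55 for the cytokine gene *Il1b*, 1.72 to 2.12 for *Ccl6* and 6.32 to 9.29 for the far more abundant *Retnlg*. *BC100530*, a further stefin A gene of the locus, was also high at 4.01 to 7.49. It was the gene most often closest to *Stfa1* in the windows above, so its counts can include *Stfa1* reads.

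In most high cells 1 member gave most of the stefin A UMIs. In the 1761 high cells the leading member gave a median of 85.7% of the stefin A UMIs. In 1033 cells (58.7%, 56.3 to 61.0, and 57.1 to 60.4% by library) 1 member gave at least 80%, and in 550 (31.2%) the other members had no UMI at all. *Gm5483* led 1068 of the high cells, *Stfa2l1* 400, *Stfa1* 218, *Stfa3* 51 and *Stfa2* 24. The share of *Gm5483* was below 10% in 26.0% of these cells and at least 90% in 27.4%, although it gave 59.7% of their pooled stefin A UMIs. Of 17334 neutrophil-like cells, 1039 had 10 or more *Gm5483* UMIs and 456 as many *Stfa2l1* UMIs. In both sets were 178, which is 17.1% of the first and 39.0% of the second. Of 233 such cells for *Stfa1*, 72 (30.9%) also had 10 or more UMIs of *Gm5483* or *Stfa2l1*. In N0 and N3 (7961 cells), *Gm5483* was detected in 46.5% of cells with *Stfa2l1*, against 26.9% of all N0 and 26.7% of all N3 cells. Cells with *Stfa2l1* thus had *Gm5483* more often than cells in general, and the part of depth was not tested. After reduction of depth, Pearson's r over these 7961 cells was positive for every pair of members (0.03 to 0.29), highest for *Gm5483* and *Stfa2l1*.

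Of the genes compared, few told high cells apart. High cells were compared with cells of the same cluster without a stefin A UMI. In N0, 1 of 777 genes (0.129%) was at least 1.5-fold higher in all 5 libraries, *BC100530*, and 0 were lower (0%). High cells were picked by UMIs that include those of *Stfa1*, the near copy of *BC100530*. The part of misplaced *Stfa1* reads in this difference was not tested. In N3 it was 0 of 391 in either direction (0%). These sets were smaller than the 5900 genes compared between N3 and N0. Genes outside the 777 and the 391 were not tested, so whether they differ is not known. High cells of N3 were also few, with 45, 51 and 42 at days 3, 6 and 9. High N0 cells were deeper, with a median of 2029 against 1713 UMIs at day 0 and 2950 against 2309 at day 3, and the part of depth in these comparisons was not tested.

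The genes whose level followed the family most closely were sought over 92 groups of cells (a cluster in a library) and 7475 genes, on log2 CPM. Groups of the same library share its depth and free RNA. The leading ones were *Retnlg* (Pearson's r = 0.91), a resistin-like secreted protein, *Asprv1* (0.87), *2310001H17Rik* (0.86) and *Cxcr2* (0.86), followed down to *Mmp9* (0.83), a gelatinase of late granules. Over the 25 groups that were neutrophil-like, they were *Klra2* (0.99), *Fas* (0.98), the death receptor, and *Cyp4f18* (0.98), with *Aqp9* and *Arg2* also among the first 10 (0.98 and 0.97).

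Of 15 listed other stefins and cystatins, 11 were in the files and 6 had at least 100 UMIs in the comparisons with day 0. Of these, 1 was at least 1.5-fold higher at day 3 (*Gm5416*, log2 ratio 0.74), 0 at day 6, 1 at day 9 (*Cst7*, 0.70) and 1 at day 12 (*BC100530*, 0.9995), and 1 was lower at day 9 (*2010005H15Rik*, -0.90). Of all genes, 6.9, 13, 15.4 and 4.72% were as much higher on these days and 3.45% lower at day 9, so 1 of 6 at day 9 is near the background. Their median log2 ratio was 0.17, 0.14, 0.19 and -0.0671. *BC100530*, *Gm5416* and *2010005H15Rik* of the same locus were also highest in N0 and N3. *BC100530* had 67.4 CPM in neutrophil-like cells, with 204 in N0, 151 in N3 and 4.23 in N5, and was above *Stfa3* and *Stfa2* in every library. *Gm5416* had 3.90 and *2010005H15Rik* 3.20. The relatives outside the locus had their highest class levels elsewhere. *Cstb*, the stefin B gene, had 103 CPM in neutrophil-like and 366 in monocyte-like cells, and *Cst3*, the secreted cystatin C, 546 and 3003. Within the neutrophil-like clusters both were also highest in N0 and N3, at 152 and 272 CPM for *Cstb* and 880.0 and 729 for *Cst3*, against 47.6 to 112 and 382 to 482 in the other clusters. *Cst7*, cystatin F, had 6.63 CPM in neutrophil-like and 169 in progenitor-like cells.

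Cysteine cathepsins are the proteases that stefins bind. The 7 of 10 listed with enough UMIs were all lower in neutrophil-like than in monocyte-like cells. The share of all genes that were lower is not given, so this is not shown to be particular to cathepsins. *S100a8* and *S100a9* alone gave 22.8 and 15.5% of neutrophil-like UMIs, which lowers the CPM of all other genes. *Ctss* had 33.6 CPM in neutrophil-like and 1110 in monocyte-like cells, and *Ctsb* 74.4 and 531. Not all were lowest in neutrophil-like cells, since *Ctsl* had 21.9 CPM against 13.3 in T-like cells, and *Ctsh* 95.1 against 31.5 in T-like cells. Of the 7, 0, 3, 1 and 0 were at least 1.5-fold higher than at day 0 at days 3, 6, 9 and 12, and 1 was lower on each day (all genes 6.9, 13, 15.4 and 4.72% higher and 3.49, 2.8, 3.45 and 3.34% lower). *Ctsb*, *Ctsc* and *Ctss* were the 3 at day 6 and *Ctss* the 1 at day 9. Their median log2 ratio was 0.31, 0.33, 0.25 and -0.08. *Ctso* was the lower one at day 12 (log2 ratio -0.83). *Ctsl*, the lower one on the 3 days before it, had 34.9 CPM at day 0 and 11.3, 15.7, 12.3 and 34.3 CPM after it. Among the neutrophil-like clusters *Ctsl* was highest in N3, at 65.8 CPM against 12.1 to 23.7 in the others. Ratios of listed genes to day 0 were not weighted to the pooled mix of clusters, so the part of that mix was not tested.

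Among the granule and stage lists, the tertiary granule genes (4 listed) had 2, 2, 2 and 3 members past 1.5-fold higher at days 3, 6, 9 and 12 and none lower. Here too the shares of all genes were 6.9, 13, 15.4 and 4.72% higher and 3.49, 2.8, 3.45 and 3.34% lower. *Mmp8* (log2 ratios 1.04, 1.22, 1.19 and 0.80) and *Mmp9* (0.81, 0.90, 0.999 and 0.85) were among them each time, and *Retnlg* at day 12 (0.74). The interferon response genes (6 listed) had 3, 2, 2 and 0 higher, with *Rsad2* at 1.01, 0.72, 0.99 and 0.33. Of 6 primary granule genes 4 were lower at day 3 (*Elane*, *Prtn3*, *Mpo* and *Ctsg*, -1.17 to -0.70) and none on the later days, and none of the secondary granule or dividing-cell genes passed in either direction. Of the 8 late neutrophil genes 0, 2, 2 and 1 were higher and 2, 1, 2 and 1 lower. The lower ones at day 3 were *Dusp1* (-1.20) and *Il1b* (-0.64), both early response genes. Both had their highest cluster level in N3, at 1762 CPM for *Dusp1* and 989 for *Il1b*, and the part of the cluster mix was not tested.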

How the data were processed

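Single-cell suspensions of mouse bone marrow were sequenced on the 10x Genomics 3′ platform, and per the labels the authors counted UMIs with Cell Ranger against mm10. The deposited values are raw counts of UMIs per gene and barcode; the annotation release is not given in the sources used here. Barcodes with at least 500 UMIs were kept. The members and gene lists were chosen with earlier results of these data known. Cells were clustered with scanpy 1.11.5 and leidenalg 0.10.2 (1000 variable genes per library, 20 components, 20 neighbours, resolution 0.6, members left out), and clusters were named where 3 or more listed markers passed 20% of cells and 2-fold. UMIs were summed per class and library. Intervals are exact (Poisson, Clopper-Pearson, conditional binomial; scipy 1.17.1). With 1 library per day no test was run, and a gene was called between days or clusters at 1.5-fold with at least 100 UMIs. The comparison of high cells with cells without a stefin A UMI covered fewer genes. Named genes were the members, the listed genes, the 10 most alike and the leading genes of each cluster. Scripts were tested on simulated data. Alternatives included TMM scaling (edgeR 4.0.16), other filters and other clusterings. Sequences and annotation came from RefSeq (GRCm38.p6) and GENCODE (GRCm38); all 5 members matched a RefSeq promoter.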

Additional observations from a re-analysis of the deposited data

How the results depend on the processing

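The restriction to neutrophil-like cells kept its direction under every alternative run, and the sizes moved. The log2 ratio of neutrophil-like to B-like cells was 2.43, and became 4.00004 with a mean of per-cell values, 4.51 at clustering resolution 1.2 and 4.53 without the 5% of cells with the highest doublet score. The share of stefin A UMIs in neutrophil-like cells (92.4%) became 99.1% with the B-like level subtracted, 92.9% with a limit on mitochondrial reads and 95.8% without the cells of highest doublet score. The log2 ratio of the highest to the lowest cluster (4.83) became 5.13 with the members allowed in the clustering and 5.17 at resolution 1.2. Detection (19.5%) became 36.2% without reduction of depth and 24.0% at 1000 UMIs. The differences between days were less firm. For days 3, 6, 9 and 12 the log2 ratios of 0.59, 0.15, 0.33 and 0.40 became 0.0651, -0.41, -0.24 and 0.0807 with the pooled mix of clusters, 0.27, -0.0930, 0.0049 and 0.0856 with a mean of per-cell values, and 0.39, 0.21, -0.0961 and -0.0781 with the B-like level subtracted. For days 3, 6 and 9 they became 0.45, -0.0598 and 0.12 with TMM scaling and 0.51, 0.0148 and 0.19 without the 20 most abundant genes in the denominator. Day 12 became 0.45 with the mitochondrial limit, which there removed 85.6% of B-like but 3.78% of neutrophil-like cells, and day 9 became 0.37 without the 1% of cells with the most stefin A UMIs. The cause of these shifts was not tested. The 31 other values of this kind stayed within their counting interval. Of the values for single members and for counts of genes, 70 moved and 136 did not. Among the member calls, the pooled mix ended that of *Stfa3* at days 3, 9 and 12 and that of *Stfa2* at day 9, and put *Stfa2l1* past the limit on the lower side at day 6 (-0.59). The 2 alternatives that leave out cells by doublet score or by stefin A UMIs were added after seeing the data. The planned removal of called doublets was not run, because the caller marked 4, 1, 0, 0 and 2 cells. *Stfa1* and *Stfa2* have no day 12 value with the B-like level subtracted, since that level, set by 1 cell, was the higher. No paired analysis was possible because each day is a single library, and for the same reason no replicate could be left out. Depth limits *Stfa2* and *Stfa3* most, and mouse-to-mouse spread is unknown.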
